A study of Mus musculus with 4 samples.

Results

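The clustered histone genes are the histone genes that lie side by side in the Hist1, Hist2, Hist3 and Hist4 loci of the mouse genome. They were taken as every row of the deposited gene table whose symbol starts with Hist1h, Hist2h, Hist3h or Hist4h and does not contain -ps, which gave 69 of 25509 gene rows. Of these, 55 belong to Hist1 on chromosome 13, 11 to Hist2 on chromosome 3, 2 to Hist3 on chromosome 11 and 1 to Hist4 on chromosome 6. By class, 6 rows are named for linker histone H1, 19 for H2A, 19 for H2B, 12 for H3 and 13 for H4. The 69 rows carry 68 symbols, since Hist2h2bb has 2 rows. In the GENCODE M21 annotation of build GRCm38, 1 Hist2h2bb row is a long noncoding RNA and Hist1h2al is a processed pseudogene. Hist1h2al lies at chr13:51202727-51203065, apart from the other Hist1 rows.

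RNA came from naive CD4+ T cells of mouse spleen (CD25-, CD62L high, CD44 low) from Batf3-/- and WT mice, Batf3 being an AP-1 family transcription factor. All cells were stimulated for 72 h through CD3 and CD28, with antibodies to both, in the presence of IL-4, TGFb and TL1A. These are TH9 conditions with the addition of TL1A, a cytokine of the tumour necrosis factor family that the treatment tag spells TLA1. There are 2 Batf3-/- and 2 WT libraries, prepared from poly(A)-selected RNA in a strand-keeping protocol and read as single ends of 75 bases. The labels do not say whether libraries of a genotype came from separate animals or cultures, so the p-values below measure the spread between these libraries, which may be technical.

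Histone proteins package DNA into nucleosomes: H2A, H2B, H3 and H4 form the core and H1 binds the linker. Most clustered histone genes have no intron and are transcribed in S phase, and their mRNAs are the only known metazoan mRNAs that normally end in a conserved stem-loop, bound by the stem-loop binding protein SLBP, in place of a poly(A) tail. Some of them also give polyadenylated forms through a poly(A) signal further downstream, and selection for poly(A) captures those forms.

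The stem-loop was looked for first, because it bears on what a poly(A) library can capture. The motif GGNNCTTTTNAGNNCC, where N is any base, was searched on the transcript strand only and was found in an annotated M21 transcript of 44 of the 69 genes. Taking the longest transcript of each gene, it was in 62.3% of the clustered genes and in 0.129% of 18623 other protein-coding genes. The poly(A) signal AATAAA lay in the last 50 bases of the longest transcript of 17.4% of the clustered genes and 59% of the others. Counting all annotated transcripts, 15 clustered genes had that signal at an end and 11 had both. The stem-loops of 4 of the most abundant members are shown here with 5 bases on each side, from GENCODE M21 on GRCm38, with the stem-loop in capitals. They lie at chr13:23739512-23739527 (plus strand, Hist1h1c), chr3:96239784-96239799 (minus strand, Hist2h2aa2), chr13:23745047-23745062 (minus strand, Hist1h3c) and chr13:22040966-22040981 (minus strand, Hist1h4i).
Hist1h1c: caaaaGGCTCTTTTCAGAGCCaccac
Hist2h2aa2: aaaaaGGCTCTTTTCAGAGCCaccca
Hist1h3c: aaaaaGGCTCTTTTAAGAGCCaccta
Hist1h4i: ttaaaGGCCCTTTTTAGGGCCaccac
The form in Hist1h1c and Hist2h2aa2 was carried by 26 members, that in Hist1h3c by 6 and that in Hist1h4i by 2, while 7 H4 genes carried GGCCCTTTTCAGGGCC. The annotated transcript runs 840 bases past the stem-loop in Hist1h1c and 330 in Hist1h4i, but only 35 in Hist2h2aa2 and 74 in Hist1h3c. Of the 44, 21 have a transcript that ends within 60 bases of the stem-loop, and 18 have a transcript that runs over 300 bases past it. Of the 25 without the motif, 13 are coding genes with no annotated 3′ UTR, 2 have one shorter than the motif and 2 are noncoding in M21.

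The coding sequences are near copies of each other, which bears on how reads can be assigned. On the same strand, 63 of the 69 genes share at least 1 stretch of 75 bases, the read length, with another gene, 28 share over 50% of their 75-base stretches, and the median share is 42.0%. The following 3 coding stretches are each identical in many genes. The H2A stretch, at chr13:23751337-23751411 (plus strand, in Hist1h2ab), is in 13 of 19 H2A genes and in 4 genes outside the 69. The H3 stretch, at chr13:23762116-23762190 (minus strand, in Hist1h3a), is in all 12 H3 genes and in 1 gene outside the 69. The H4 stretch, at chr13:23760921-23760995 (minus strand, in Hist1h4a), is in 10 of 13 H4 genes and in 0 genes outside the 69. All are GRCm38 and 5′ to 3′ on the gene's strand.
H2A: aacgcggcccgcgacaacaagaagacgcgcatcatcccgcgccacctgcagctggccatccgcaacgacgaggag
H3: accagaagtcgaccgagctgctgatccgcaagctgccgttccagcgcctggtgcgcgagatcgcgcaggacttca
H4: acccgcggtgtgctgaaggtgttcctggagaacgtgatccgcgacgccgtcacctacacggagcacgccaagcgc
A read inside one of these stretches has the same letters in each gene that holds it.

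The counts are RSEM expected counts, which divide reads that match several genes and so need not be whole numbers. Of the 187 member values above 0, 157 (84.0%) were more than 0.01 away from a whole number, against 17.1% of the 58159 values above 0 over all genes. Fractional values occurred in 57 of the 69 members. All 57 share a 75-base stretch with another gene. The 6 detected members with whole counts in every library were Hist1h1a, Hist1h1b, Hist2h2be, Hist3h2ba, Hist2h4 and Hist4h4. Summing over a class removed the fractions in 4 of the 5 classes: the summed counts of H1, H2B, H3 and H4 lay within 0.02 of a whole number in every library. For H4 the sums were 257.01 and 64.00 in the Batf3-/- libraries and 126.00 and 135.99 in the WT libraries, although single H4 genes such as Hist1h4i had 86.09 and 27.21 in Batf3-/- and 91.15 and 29.61 in WT. The H2A sums lay up to 0.34 from a whole number. Clustered H2A genes also share 75-base stretches with genes outside the family, among them H2afx and Trim17. With both added, the sums were 2704.76 and 948.99 in Batf3-/- and 830.03 and 1376 in WT, up to 0.24 from a whole number. Several values below are therefore the estimator's division of shared reads, and class sums are given beside them. The H2A class sum can still depend on how reads were divided with H2afx.

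Library totals were 31098059 and 15624874 expected counts for Batf3-/- replicates 1 and 2, and 23754946 and 27285811 for WT replicates 1 and 2. Batf3 itself had 17 and 8 counts in the Batf3-/- libraries and 1439 and 1661 in the WT libraries, a log2 fold change of -6.84 (SE 0.297). All 8 T cell markers were detected, with summed levels of 2541 and 2577 CPM (counts scaled to a common library size) in Batf3-/- and 2635 and 2365 CPM in WT. The sums for the lists of 6 myeloid, 4 NK cell, 4 mast cell and 4 erythroid genes were at most 1.29 CPM in any library. The 5 B cell markers summed to 10.2 and 12.3 CPM in Batf3-/- and 13.2 and 9.88 CPM in WT, nearly all of it Cd79b, with Ms4a1 at 0 in all 4 libraries. The 5 dendritic cell markers summed to 6.77 and 5.88 CPM in Batf3-/- and 9.09 and 6.82 CPM in WT, mostly Zbtb46, and the CD8 pair to 7.43 and 7.31 CPM in Batf3-/- and 9.09 and 8.49 CPM in WT, nearly all Cd8b1.

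Clustered histone RNA was scarce in every library. All 69 genes together held 1583.22 and 388.18 counts in Batf3-/- replicates 1 and 2 and 652.65 and 961.83 counts in WT replicates 1 and 2, which is 0.00509% and 0.00248% of the Batf3-/- totals and 0.00275% and 0.00353% of the WT totals. Scaled with TMM (trimmed mean of M-values) factors, the sums were 49.8 and 25.1 CPM in Batf3-/- and 28.0 and 35.1 CPM in WT, or 37.5 ± 17.5 CPM in Batf3-/- and 31.5 ± 5.01 CPM in WT (SD, n = 2 each). Batf3-/- replicate 1 was the highest library and Batf3-/- replicate 2 the lowest, a ratio of 1.99, so the WT libraries lay between them and the genotypes overlapped. The mean log2 ratio of Batf3-/- to WT was 0.18. In bulk RNA, fewer cells that make these transcripts and less of the transcript in each cell cannot be told apart.

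The order of the 4 sums was also the order of the library totals, although CPM is scaled for them. The sum of 24 S phase genes was 3317 and 2965 CPM in Batf3-/- and 3101 and 3466 CPM in WT, and did not have that order. The part of depth or of cell cycle phase in the histone sums was not tested.

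The histone genes outside the clusters, which are made through the cell cycle as ordinary polyadenylated mRNAs in most cases, were far more abundant in the same libraries. The 15 such genes in the table summed to 1853 and 1558 CPM in Batf3-/- and 1961 and 1637 CPM in WT. These are 37.2 and 62.1 times the clustered sum in Batf3-/- and 70.1 and 46.7 times in WT.

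**Figure D1:**
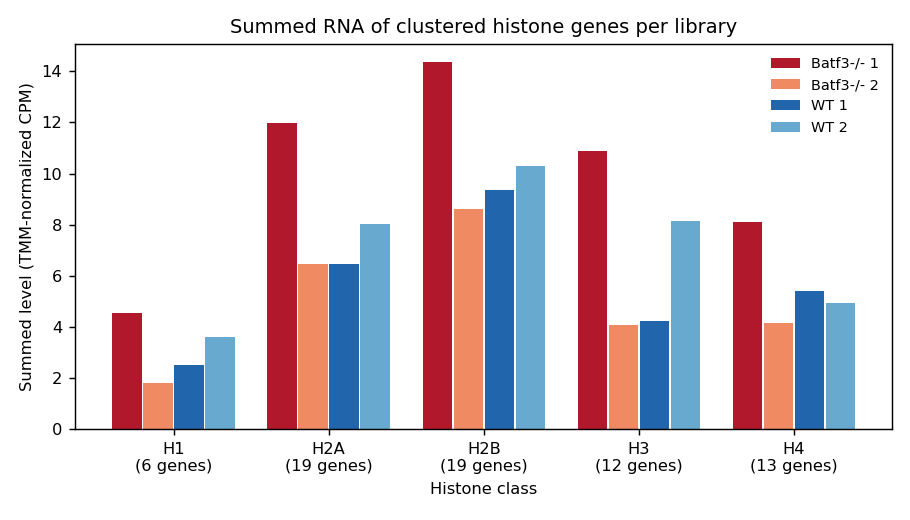
Summed TMM-normalized CPM (vertical axis, from 0) of the clustered histone genes of each class, 1 bar per library, Batf3-/- in reds and WT in blues. Batf3-/- replicate 1 is the highest bar in all 5 classes, and the WT bars lie below it, so that for H3 it stands at 10.9 CPM, against 4.07 CPM in Batf3-/- replicate 2, 4.24 CPM in WT replicate 1 and 8.16 CPM in WT replicate 2.

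Detection followed the same order. Counts above 0 were recorded for 59 and 37 members in Batf3-/- replicates 1 and 2 and for 40 and 51 members in WT replicates 1 and 2, and at least 10 counts for 36 and 11 members in Batf3-/- and 16 and 26 in WT. A gene listed at 0 can still have had up to 3 counts, which is 0.0944 and 0.194 CPM in the Batf3-/- libraries and 0.129 and 0.109 CPM in the WT libraries, for counting error only. Over all libraries 63 members were detected, 25 of them in all 4 and 8 in only 1. The 6 at 0 throughout were Hist1h1t, Hist1h2aa and Hist1h2ba, which encode the testis-specific H1, H2A and H2B, together with Hist1h2ad, Hist1h2al and Hist1h4a.

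A low-count filter, set at about 0.392 CPM in at least 2 libraries, kept 12135 genes and 24 of the 69 members for edgeR's quasi-likelihood test of Batf3-/- against WT. Of the 24, 23 passed the filter in libraries of both genotypes and 1, Hist1h2ai, through Batf3-/- alone. At a Benjamini-Hochberg adjusted p under 0.05, 1 member was higher in Batf3-/- and 0 were lower, where 0.0824% of all tested genes were higher and 0.0494% lower. The member that was called is Hist1h2ai. At an unadjusted p under 0.05 there was again only Hist1h2ai, and no member was lower, against 3.4% and 1.4% of all tested genes, and neither DESeq2 nor limma-voom called a member lower. The smallest unadjusted p among the other 23 was 0.178 (adjusted p 0.958 in edgeR's test).

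Of the 24 log2 fold changes, 19 were above 0, where 48.4% of all tested genes were above 0, and their median was 0.27, against -0.01 over all tested genes. In 22 members the genotypes overlapped. The 2 without overlap were Hist1h2ai, higher in Batf3-/- (18.2% of all tested genes are so), and Hist1h2ag, lower in Batf3-/- (15.6% of all tested genes). The highest of the 4 libraries was Batf3-/- replicate 1 for 12 of the 24 (21.5% of all tested genes) and the lowest was Batf3-/- replicate 2 for 12 (22.7% of all tested genes), 2 of them tied with another library at 0. Batf3-/- replicate 2 is also the library with the smallest total, and 5 of the 24 were at 0 in it. Without Batf3-/- replicate 1 the median was -0.42 and without WT replicate 1 it was -0.02, while without WT replicate 2 it was 0.81 and without Batf3-/- replicate 2 it was 0.54. The members were measured less precisely than most genes, with a median SE of 0.615 on the log2 scale against 0.217 over all tested genes, and a median level of 0.849 CPM against 26.7 CPM.

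**Figure D2:**
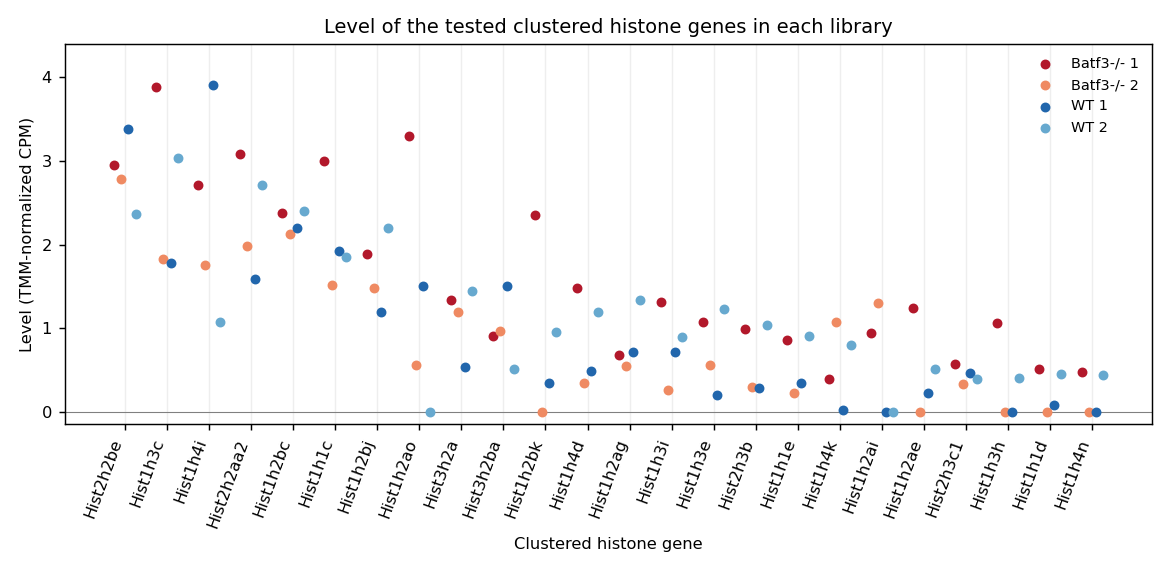
Level of each of the 24 tested clustered histone genes in TMM-normalized CPM (vertical axis, linear), 1 point per library, ordered by mean level, with Batf3-/- replicates 1 and 2 left of WT replicates 1 and 2. Batf3-/- and WT points intermix in 22 genes, and Hist1h2ai is the gene with both WT points at 0.

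The linker histones were low. Summed H1 counts were 144 and 28 in Batf3-/- and 59 and 99 in WT, or 4.53 and 1.81 CPM in Batf3-/- and 2.53 and 3.61 CPM in WT. Most of it was Hist1h1c, an H1 gene of somatic cells (ENSMUSG00000036181.2, chr13:23738808-23740367, plus strand, 1 exon), at 3.0 and 1.52 CPM in Batf3-/- and 1.93 and 1.85 CPM in WT. Its WT libraries lay between the Batf3-/- libraries, and the log2 fold change was 0.34 (SE 0.391). Hist1h1e, another somatic H1, had 0.864 and 0.224 CPM in Batf3-/- and 0.343 and 0.905 CPM in WT, a log2 fold change of -0.07 (SE 0.666). Hist1h1d had 0.507 and 0 CPM in Batf3-/- and 0.0857 and 0.455 CPM in WT, where Batf3-/- replicate 1 and WT replicate 2 were the high libraries. Hist1h1a and Hist1h1b, further somatic H1 genes, had at most 10 counts in a library and were not tested.

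Among the H2A genes, summed counts were 380.20 and 100.15 in Batf3-/- and 150.66 and 219.83 in WT, or 12.0 and 6.48 CPM in Batf3-/- and 6.46 and 8.01 CPM in WT. Hist2h2aa2 (ENSMUSG00000063954.7, chr3:96239749-96240276, minus strand), which encodes a canonical H2A, was the most abundant of them, at 3.09 and 1.98 CPM in Batf3-/- and 1.59 and 2.72 CPM in WT, a log2 fold change of 0.27 (SE 0.384). All of its 75-base stretches occur in another gene, and its near copy Hist2h2aa1 (chr3:96245497-96246082, plus strand) was listed at 0 in both Batf3-/- libraries, at 17.63 counts in WT replicate 1 and at 0 in WT replicate 2. Summed, the pair had 98.17 and 30.60 counts in Batf3-/- and 54.73 and 74.57 counts in WT, so that WT replicate 1 alone differed from Hist2h2aa2 by itself. Hist3h2a (chr11:58954685-58956830, plus strand) had 1.34 and 1.2 CPM in Batf3-/- and 0.535 and 1.45 CPM in WT, a log2 fold change of 0.37 (SE 0.503), with WT replicate 1 the low library. Hist1h2ag (chr13:22042460-22042944, minus strand) had 0.684 and 0.549 CPM in Batf3-/- and 0.721 and 1.34 CPM in WT. Both of its Batf3-/- libraries were below both WT libraries, by a log2 fold change of -0.74 (SE 0.545) with an adjusted p of 0.958 in edgeR's quasi-likelihood test.

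For other H2A genes the copy that held the counts differed between libraries. Hist1h2ao (chr13:21810465-21810944, plus strand) had 104.99 and 8.69 counts in Batf3-/- and 35.15 and 0 in WT, while its near copy Hist1h2ap (chr13:21833026-21833507, minus strand) had 0 and 0 in Batf3-/- and 0 and 33.92 in WT. The pair together had 3.30 and 0.562 CPM in Batf3-/- and 1.51 and 1.24 CPM in WT, with the WT libraries between the Batf3-/- libraries. The log2 fold change of Hist1h2ao by itself was 1.63 (SE 1.57). Hist1h2ae had 39.38 and 0 counts in Batf3-/- and 5.31 and 14.14 in WT, a log2 fold change of 1.05 (SE 0.878).

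Hist1h2ai, an H2A gene (ENSMUSG00000071516.2, chr13:21716422-21716814, plus strand, 1 coding exon with no annotated UTR), was the only clustered histone gene past the threshold. It had 30.02 and 20.12 counts in the Batf3-/- libraries and 0 and 0 in the WT libraries, or 0.945 and 1.30 CPM in Batf3-/- and 0 CPM in both WT libraries. Against a limit of 3 counts per WT library its mean level in Batf3-/- was 9.44-fold higher. That limit covers counting error only and not the division of shared reads between copies, so this is no lower bound. The fitted log2 difference, 7.73 ± 1.42 (SE) with an adjusted p of 0.0356 in edgeR's quasi-likelihood test, depends on how the fit treats the zeros and is no bound. Since the gene passed the low-count filter through its Batf3-/- libraries alone, it could enter the test only with a difference of this direction, and its call is given as a description of this gene and not of the family. With no filter its adjusted p was 0.0174 and with a filter on the mean count over all 4 libraries 0.0320, both in edgeR's test. With both WT counts at 0, the mean-count filter too was passed through Batf3-/- alone. Both fits reuse the same counts, so neither is separate support for the call. The gene lies among near copies: its 390-base coding sequence without the stop codon differs at 4 bases from that of Hist1h2ad and of Hist1h2ag and at 5 from that of Hist1h2ao and of Hist1h2ap. Of its 319 stretches of 75 bases, 34 occur in no other gene. They fall in 2 parts of the gene, at chr13:21716422-21716527 and chr13:21716739-21716814 (GRCm38, plus strand, GENCODE M21). These are printed here because only reads within them can be told apart from reads of the copies, with capitals at the bases where Hist1h2ad differs.
Hist1h2ai, start: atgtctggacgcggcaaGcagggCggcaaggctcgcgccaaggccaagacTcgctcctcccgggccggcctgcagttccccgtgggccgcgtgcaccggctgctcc
Hist1h2ai, end: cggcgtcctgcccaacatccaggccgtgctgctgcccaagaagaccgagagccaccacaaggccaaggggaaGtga
How many of the reads behind its counts fell there cannot be read from a table of expected counts.

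Added to the 10 clustered genes that each hold at least 50% of its 75-base stretches, Hist1h2ai gave 223.78 and 48.00 counts in Batf3-/- and 78.42 and 99.64 counts in WT, or 7.04 and 3.10 CPM in Batf3-/- and 3.36 and 3.63 CPM in WT. Both WT libraries lay between the Batf3-/- libraries. Hist1h2ai also shares stretches with genes left out of that sum, among them Hist2h2aa2, Hist3h2a and H2afx. Apart from Batf3-/- replicate 2 the summed counts stayed fractional, so the sum does not remove the division of shared reads. Within that sum the leading gene was not the same in every library: Hist1h2ao led in Batf3-/- replicate 1 and in WT replicate 1, Hist1h2ai led in Batf3-/- replicate 2, and Hist1h2ag and Hist1h2ap led in WT replicate 2. Hist1h2ah, which holds 81.2% of the stretches of Hist1h2ai, had 0 and 7.57 counts in Batf3-/- and 0 in both WT libraries. With a correction for GC content the adjusted p of Hist1h2ai in edgeR's test was 0.126, and with the members summed by class no H2A sum was called. Over the other alternatives that kept all 4 libraries the adjusted p lay between 6.24e-05 and 0.0366, both in edgeR's test. The lower end came with a replicate block, a pairing that the labels do not state, and the upper end with upper-quartile scaling. All of them reuse the same expected counts, so the range does not bear on how shared reads were divided.

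**Figure D3:**
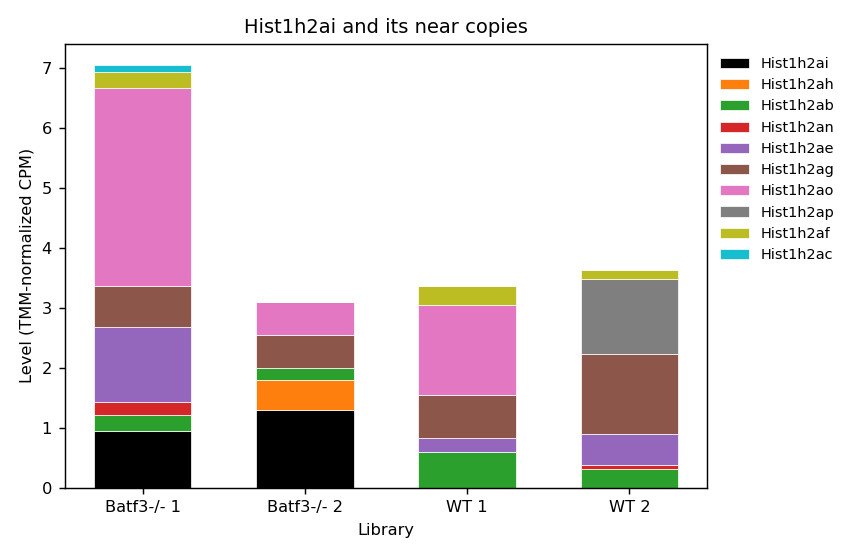
Stacked bars of TMM-normalized CPM (vertical axis, from 0) for Hist1h2ai, in black, and the clustered genes that hold at least 50% of its 75-base stretches, in colours, 1 bar per library with Batf3-/- left of WT. Hist1h2ai appears only in the Batf3-/- bars, while the bars' heights are 7.04 and 3.10 CPM in Batf3-/- and 3.36 and 3.63 CPM in WT.

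The H2B class was the most abundant of the 5, with 456.01 and 133.01 counts in Batf3-/- and 217.99 and 283.00 counts in WT, or 14.4 and 8.60 CPM in Batf3-/- and 9.34 and 10.3 CPM in WT. Its leading gene was Hist2h2be (ENSMUSG00000068854.7, chr3:96221119-96223738, plus strand), whose counts were whole in all libraries and which shares no 75-base stretch with another gene. It had 94 and 43 counts in Batf3-/- and 79 and 65 counts in WT, or 2.96 and 2.78 CPM in Batf3-/- and 3.39 and 2.37 CPM in WT. The Batf3-/- libraries lay between the WT libraries, and the log2 fold change was 0.01 (SE 0.346), the smallest SE among the 24. Its annotated transcript of 2620 bases ends with a poly(A) signal and holds no stem-loop motif.

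The other H2B genes gave the same picture of overlap. Hist1h2bc had 2.38 and 2.13 CPM in Batf3-/- and 2.20 and 2.41 CPM in WT, a log2 fold change of -0.01 (SE 0.360). Hist1h2bj had 1.89 and 1.48 CPM in Batf3-/- and 1.19 and 2.20 CPM in WT, a log2 fold change of 0.01 (SE 0.417). Hist3h2ba, which had whole counts, had 29 and 15 in Batf3-/- and 35 and 14 in WT, or 0.913 and 0.970 CPM in Batf3-/- and 1.5 and 0.510 CPM in WT. Its Batf3-/- libraries lay between the WT libraries (log2 fold change -0.07, SE 0.548). Hist1h2bk, which shares 72.6% of its stretches, had 74.97 and 0 counts in Batf3-/- and 8.14 and 26.17 counts in WT, with Batf3-/- replicate 1 far above the rest and a log2 fold change of 1.11 (SE 1.19).

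Summed H3 counts were 346.00 and 63.02 in Batf3-/- and 99.00 and 224.01 in WT, or 10.9 and 4.07 CPM in Batf3-/- and 4.24 and 8.16 CPM in WT. Batf3-/- replicate 1 and WT replicate 2 were the high libraries here. Hist1h3c, which encodes a replication-coupled H3 (ENSMUSG00000069310.3, chr13:23744973-23745602, minus strand), was the leading gene, at 3.89 and 1.83 CPM in Batf3-/- and 1.79 and 3.03 CPM in WT, with a log2 fold change of 0.31 (SE 0.395). Hist1h3h (chr13:21717659-21718069, plus strand) had 33.79 and 0 counts in Batf3-/- and 0 and 11.02 counts in WT. Its log2 fold change of 1.64 (SE 1.14, unadjusted p 0.178) rested on 1 Batf3-/- library, and 93.5% of its stretches occur in another gene.

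The H4 class had 8.09 and 4.14 CPM in Batf3-/- and 5.40 and 4.96 CPM in WT. Hist1h4i (ENSMUSG00000060639.5, chr13:22040636-22041362, minus strand) led it with 2.71 and 1.76 CPM in Batf3-/- and 3.91 and 1.08 CPM in WT, so that the Batf3-/- libraries lay between the WT libraries, and the log2 fold change was -0.08 (SE 0.499). The other 3 tested H4 genes, Hist1h4d, Hist1h4k and Hist1h4n, had log2 fold changes of 0.28, 0.51 and 0.39 with SEs of 0.598 to 1.08. Hist1h4k had 0.391 and 1.08 CPM in Batf3-/- and 0.0219 and 0.798 CPM in WT, so that Batf3-/- replicate 2 was its highest library.

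**Figure D4:**
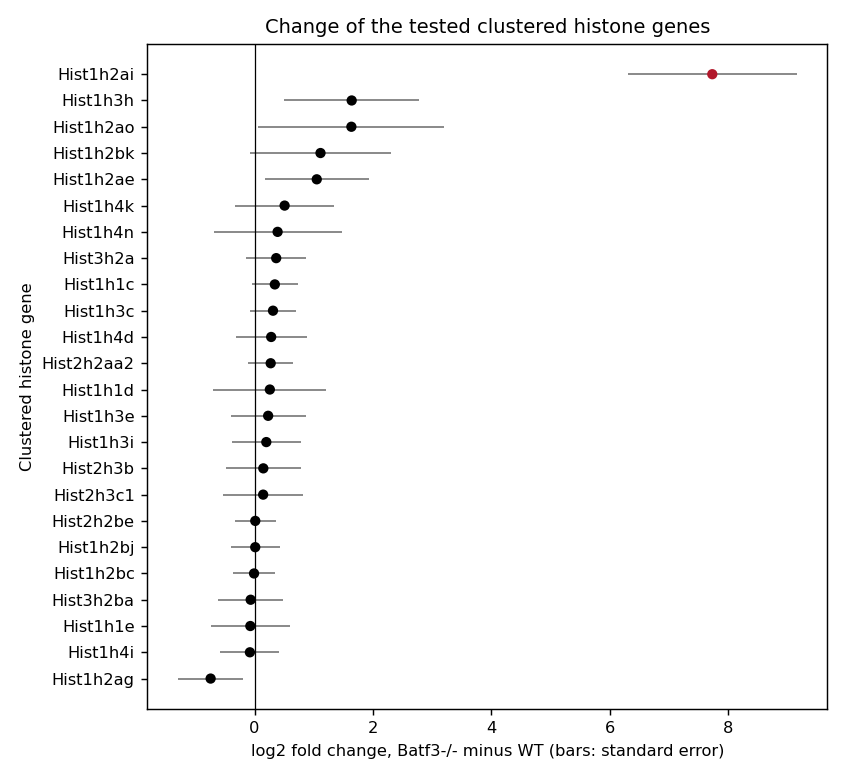
Log2 fold change of Batf3-/- against WT (horizontal axis) from edgeR's quasi-likelihood fit for the 24 tested clustered histone genes, with red for an adjusted p under 0.05. Bars are standard errors derived from the fold change and its F statistic. Hist1h2ai stands alone at 7.73, and the other 23 lie between -0.74 and 1.64.

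Per length of the longest annotated transcript the order of genes was another one. Mean levels over the 4 libraries, in CPM per kilobase, were 4.44 for Hist2h2aa2, 4.18 for Hist1h3c, 3.65 for Hist1h2bj, 3.25 for Hist1h4i, 2.80 for Hist1h2ao and 1.97 for Hist1h2bc. Hist2h2be, highest by CPM, had 1.10 CPM per kilobase. The first 4 of these genes had ranges across libraries that overlapped, from 3.01 to 5.85 for Hist2h2aa2 and from 1.48 to 5.37 for Hist1h4i, so their order does not exceed the spread between libraries.

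Split by annotated transcript ends, the 15 members with a poly(A) signal at an end summed to 12.2 and 7.61 CPM in Batf3-/- and 8.69 and 8.18 CPM in WT. The 33 with a stem-loop and no such signal summed to 28.8 and 10.7 CPM in Batf3-/- and 14.8 and 20.0 CPM in WT, a ratio of 2.68 between the Batf3-/- libraries. The 21 with neither summed to 8.86 and 6.76 CPM in Batf3-/- and 4.48 and 6.84 CPM in WT. Genes with a stem-loop and no such signal thus held 57.7% and 42.7% of the clustered histone CPM in Batf3-/- and 52.9% and 57.2% in WT. Only AATAAA in the last 50 bases counted as a signal. The group therefore includes genes whose annotated transcript runs far past the stem-loop, such as Hist1h4i (330 bases) and Hist1h4d (770 bases). It is not a set of genes without polyadenylated forms. The 12 members with whole counts in all libraries, of which 6 were detected, summed to 4.44 and 3.88 CPM in Batf3-/- and 5.19 and 3.54 CPM in WT. Most of that sum was 1 gene, Hist2h2be, at 2.96 and 2.78 CPM in Batf3-/- and 3.39 and 2.37 CPM in WT. The 57 others summed to 45.4 and 21.2 CPM in Batf3-/- and 22.8 and 31.5 CPM in WT. The ratio of Batf3-/- replicate 1 to replicate 2 was thus 1.14 for the whole-count sum, largely that of Hist2h2be, and 2.14 for the others. The ratio of WT replicate 2 to replicate 1 was 0.682 for the whole-count sum and 1.38 for the others. In WT the whole-count sum was thus not the steadier one. The difference between these ratios was not tested. Members are richer in G and C than most genes, with a median transcript GC content of 57.9% against 49.8% over all tested genes, and the part of GC content in the spread was not tested.

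By locus, Hist1 held most of the RNA, at 38.9 and 17.3 CPM in Batf3-/- and 19.1 and 26.0 CPM in WT. Hist2 had 8.61 and 5.52 CPM in Batf3-/- and 6.86 and 7.05 CPM in WT. The pair of Hist3 genes had 2.25 and 2.17 CPM in Batf3-/- and 2.04 and 1.96 CPM in WT, where both Batf3-/- libraries were above both WT libraries by a mean log2 ratio of 0.15, on counts of 71.63 and 33.52 in Batf3-/- and 47.49 and 53.80 in WT, with no test. The single Hist4 gene had at most 2 counts in a library.

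Genes that make, process and handle histone mRNA were read from lists, and edgeR's quasi-likelihood test called 0 genes in each list at an adjusted p under 0.05, as did DESeq2 and limma-voom. In the lists of histone gene transcription, end processing, export and decay, and chaperones, 0 genes had an unadjusted p under 0.05. Over all tested genes, 3.4% were higher and 1.4% lower at that p in edgeR's test. For comparison with each list below, 48.4% of all tested genes had a log2 fold change above 0, and their median was -0.01. For histone gene transcription, 9 genes were tested, 2 of them had a log2 fold change above 0 and the median was -0.17. Npat, the coactivator of histone gene transcription, had 52.6 and 56.0 CPM in Batf3-/- and 69.4 and 71.8 CPM in WT. Both Batf3-/- libraries were below both WT libraries, as in 15.6% of all tested genes. The log2 fold change of Npat was -0.38 (SE 0.186), with an unadjusted p of 0.0549 and an adjusted p of 0.958 in edgeR's test. Pou2f1, the octamer-binding factor of H2B promoters, had a log2 fold change of -0.31 (SE 0.197).

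For processing of the histone pre-mRNA end, 19 genes were tested, 11 were above 0 and the median was 0.03. Slbp had 84.9 and 63.9 CPM in Batf3-/- and 88.6 and 78.3 CPM in WT, with the genotypes overlapping and a log2 fold change of -0.16 (SE 0.196). Cstf2 and Srrt, the members of that list with the smallest p, had log2 fold changes of -0.29 (SE 0.183) and 0.26 (SE 0.188). Of 17 genes for export, translation and decay of histone mRNA, 5 were above 0 and the median was -0.06. Xrn1, a 5′ to 3′ exonuclease, stood at -0.32 on the log2 scale (SE 0.196) and Dcp2, a decapping enzyme, at -0.26 (SE 0.191). Of 11 genes of the general poly(A) machinery, 4 were above 0 (48.4% of all tested genes were). Of these 11, 1, Pabpn1, had an unadjusted p under 0.05 in edgeR's test, where 3.4% of all tested genes were higher and 1.4% lower. Pabpn1, the nuclear poly(A)-binding protein, had 125 and 108 CPM in Batf3-/- and 90.5 and 84.1 CPM in WT. Both Batf3-/- libraries were above both WT libraries, as in 18.2% of all tested genes. The log2 fold change of Pabpn1 was 0.41 ± 0.186 (SE), with an adjusted p of 0.958 in edgeR's test. Papolg, a poly(A) polymerase, had a log2 fold change of -0.40 (SE 0.227).

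Of 21 histone chaperones and assembly factors, 7 were above 0 and the median was -0.05. Atrx, a chromatin remodeller that deposits H3.3 with Daxx, stood at a log2 fold change of -0.32 (SE 0.191) and Rbbp4, a histone-binding subunit of assembly complexes, at -0.28 (SE 0.201). Of the 24 S phase genes, 10 were above 0, 0 had an unadjusted p under 0.05, and the median was -0.03. Pola1, the catalytic subunit of DNA polymerase alpha, stood at -0.24 on the log2 scale (SE 0.193). Of 15 genes of G2 and M phase, 3 were above 0 and the median was -0.26, against 48.4% and -0.01 over all tested genes. Their sum was 2774 and 2702 CPM in Batf3-/- and 3256 and 3172 CPM in WT, with both Batf3-/- libraries below both WT libraries and no test. Of single tested genes, 15.6% had both Batf3-/- libraries below both WT libraries. At an unadjusted p under 0.05 in edgeR's test there was 1 of the 15, Birc5, where 1.4% of all tested genes were lower. Birc5, which acts at mitosis, had 87.8 and 58.1 CPM in Batf3-/- and 112 and 88.4 CPM in WT, a log2 fold change of -0.45 (SE 0.213) with an unadjusted p of 0.0480 and an adjusted p of 0.958 in edgeR's test, and Mki67, a marker of dividing cells, had one of -0.36 (SE 0.201).

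Among the 10 tested histone genes outside the clusters, 5 had a log2 fold change above 0 and the median was -0.01, so the set as a whole was not higher. At an unadjusted p under 0.05 in edgeR's test there were 3, all higher in Batf3-/-, where 3.4% of all tested genes were. H2afx, which encodes the H2A variant that is phosphorylated at DNA breaks and can also end in a stem-loop, had 72.9 and 54.8 CPM in Batf3-/- and 28.7 and 42.0 CPM in WT. Both Batf3-/- libraries were above both WT libraries, as in 18.2% of all tested genes. The log2 fold change of H2afx was 0.85 (SE 0.221), with an adjusted p of 0.286 in edgeR's quasi-likelihood test. H2afx shares 75-base stretches with clustered H2A genes, and its counts of 2317.39 and 847.11 in Batf3-/- and 669.37 and 1153.05 in WT were fractional as well. H1fx, a linker histone variant, had 6.17 and 5.88 CPM in Batf3-/- and 2.57 and 4.41 CPM in WT, which is 0.78 ± 0.317 (SE) on the log2 scale, with an adjusted p of 0.926 in edgeR's test. H2afj, an H2A variant, had 46.0 and 37.5 CPM in Batf3-/- and 30.9 and 30.5 CPM in WT, a log2 fold change of 0.45 (SE 0.201). H3f3a and H3f3b, which encode H3.3, an H3 not tied to S phase, had log2 fold changes of -0.26 (SE 0.224) and -0.07 (SE 0.190).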

How the data were processed

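Genotypes and replicate numbers came from the labels. The authors deposited expected counts per gene, estimates that need not be whole, made with STAR 2.5.0 and RSEM 1.2.25 (GRCm38), as the submitters' processing notes list them. Which gene annotation was counted, and with which strand option, is not given in the sources used here; near copies and overlapping genes are uncertain. The 92 spike-in rows were 0 in all libraries and left out. Library totals ran from 15624874 to 31098059 counts. The members and lists were chosen with earlier results of these data known.

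CPM used TMM factors on unrounded counts. For the test, expected counts were rounded and fitted over all genes with edgeR 4.0.16 (R 4.3.3; filterByExpr with 10 counts, 15 in total; genotype as the only term; threshold 0.05 on the Benjamini-Hochberg adjusted p, over 12135 genes). DESeq2 1.42.0 and limma 3.58.1 were alternatives. Members were matched to GENCODE M21, 67 by identifier and 2 by symbol. Shared stretches were sought as identical 75-base words on the same strand of all transcripts. A count was called whole within 0.01 of an integer. Intervals of 3 counts cover counting error only. Named genes are every called member, the 10 tested members with the highest CPM, up to 5 members per direction with the smallest p, the top member of each class by summed count, members at 0 in both libraries of 1 genotype with over 10 counts in the other, Batf3, and 2 genes per list, of which some are not reported here; Slbp, H3f3a, H3f3b and other members were added after their values were seen. Unless stated otherwise, SE is that of edgeR's log2 fold change. The test itself gives none, so it was derived as the absolute log2 fold change over the square root of the quasi-likelihood F statistic.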

Additional observations from a re-analysis of the deposited data

How the results depend on the processing

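The count of clustered histone genes called higher in Batf3-/-, 1, was 0 with the GC correction (Hist1h2ai then had a log2 fold change of 7.41 and an adjusted p of 0.126 in edgeR's test), 0 with the fractional members summed per class and 0 with all members summed per class; the last was chosen after seeing the data. It was 1 under the other alternatives and the count called lower was 0 in all. Leaving out a library leaves 1 in its genotype, which is then assumed to vary like the other genotype's pair, so these fits say little of stability. Over all genes, 10 called higher and 6 lower became 21 higher with DESeq2. With single libraries left out they ranged from 10 to 382 higher and from 8 to 262 lower; both upper ends came without WT replicate 2, and without WT replicate 1 they were 51 and 23. In the titles, both replicate 1 libraries carry E85 and both replicate 2 libraries E87, which the labels do not explain, so a shared day or batch is not known (correlation of replicate differences 0.125 over 12135 genes, 2 pairs): with the replicate block 81 genes were higher and 31 lower, and with the replicate block and GC correction 55 and 33. The median log2 fold change of tested members, 0.27, ran from -0.42 to 0.81 with single libraries left out and from 0.11 to 0.39 otherwise. The mean log2 ratio of the summed CPM, 0.18, ran from -0.32 (without Batf3-/- replicate 1) to 0.67 (without Batf3-/- replicate 2) and was -0.05 over whole-count members. The fractional share, 84.0%, was 75.9% at a tolerance of 0.05. For single members, 256 of 312 alternatives kept sign and call, 1 lost its call, and 55 changed the sign of an uncalled value, in 22 of 24 genes. Depth limits these genes: the median tested member had 0.849 CPM.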
